A study of Mus musculus with 8 samples.

Results

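The transcripts of mouse chromosome 11 were followed across genotype and day in cultures of motor neurons made from embryonic stem (ES) cells. Members were chosen by the position of their array probes: a RefSeq accession of a gene on chromosome 11, or a probe name that gives a chr11 position on the assembly mm9. The genes Grb10 and Hand1 and symbols that begin with Hoxb, Slfn, Irgm, Tgtp, Col, Kcn, Scn, Cacn or Gabr were left out. A probe also needed a signal flagged as well above background on each array of 1 or more groups. This gave 1353 genes of 24614 tested, 1218 named through RefSeq and 135 named by position alone. They stood for 1965 of the 2768 probes on the chromosome, and 32 further measured genes were left out by symbol. At the threshold, the 46 members above background in 1 group only had a median level of -5.48, and 283 probes that missed the filter with at least 1 array above background had one of -6.36. A level here is the log2 processed signal relative to the 75th percentile of the same array. The comparison set was the 16005 genes on the other 18 autosomes.

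Chromosome 11 was singled out after knockout effects in these data were known. Knockout values over all its genes are therefore a description, and no p is given for the chromosome as a whole.

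The cells were male mouse ES cells of an Hb9-GFP line, in which a fluorescent protein reports a motor neuron gene. They were differentiated with retinoic acid and Sonic hedgehog from day 2 to day 5, split into single cells on day 5 and then kept with GDNF. Control cells and Litchi knockout cells were each sampled on day 7 and on day 9, with 2 arrays in each of these 4 groups. Neither the origin of the replicates (separate cultures or 1 culture) nor the number of knockout clones is given in the labels. The p-values therefore rest on a spread that may be only technical. A difference between 2 clones and an effect of the knockout cannot be told apart. Litchi was not found among the gene names used here, so its level was not checked.

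The 75th percentile of intensity, a measure of array brightness, ran from 649 to 1691, and 55.9% to 67.9% of spots were well above background. Both values followed the replicate number. Arrays of replicate 1 ran from 1088 to 1691 and from 61.3% to 67.9%, and those of replicate 2 from 649 to 854 and from 55.9% to 57.7%. The number of arrays limits the precision. All 8 motor neuron markers were above background on all 8 arrays, with a median level of 1.71 and 1.67 on the control arrays of day 7 and of 1.30 and 1.31 on the knockout arrays. On day 9 the median of control arrays was 0.55 and -0.21, and that of knockout arrays -0.60 and -0.26. In a mixed culture, fewer cells of a type and less RNA per cell cannot be told apart. Some markers of other cells moved with genotype: 4 of 5 fibroblast and mesoderm markers rose in knockout cells, with Thy1 at a log2 change of 2.41. Aqp4, the 1 astrocyte marker measured, stood at -0.38 (adjusted p = 0.254 by limma) and did not pass. Of 3 markers of motor neuron progenitors, Olig2 (1.93, adjusted p = 0.0129) and Olig1 (1.78, adjusted p = 0.0146) rose. The third, Nkx6-1, stood at -0.20 (adjusted p = 0.307). Of the trophoblast markers, 3 of 3 measured fell, though Tpbpb was above background on only 4 of 8 arrays and Ctsq on 3. The part of these other cells in the results on chromosome 11 was not tested.

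Mouse chromosome 11 is dense in genes. It carries many housekeeping genes, such as those of the mitochondrial ribosome, along with clusters of keratin, chemokine and interferon-induced GTPase genes. ES cells in culture are known to gain whole chromosomes at times, with chromosome 11 among those known to recur in the mouse. The arrays measured RNA, and DNA copy number was not analysed here.

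Promoters were read to see what members of 2 kinds look like at their start: interferon response genes, which held the members with the largest rises, and genes of the mitochondrial ribosome, whose members on chromosome 11 all rose by a modest and similar size. Sequences are from RefSeq on GRCm38.p6, and 962 of 1218 RefSeq-named members had a promoter in that table. The 100 bases before the start of each gene are shown 5′ to 3′ on the gene's strand. Capitals mark a match, on either strand, to any of 4 motifs. The interferon-stimulated response element, which binds interferon-activated factors, was searched as a pair of TTTC with 2 bases of any kind between them. The GC box was searched as GGGCGG. The CCAAT box was searched by those letters and the TATA box as TATAAA.
Xaf1: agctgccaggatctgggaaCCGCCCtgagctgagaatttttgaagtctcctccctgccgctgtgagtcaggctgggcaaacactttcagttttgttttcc
Ifi35: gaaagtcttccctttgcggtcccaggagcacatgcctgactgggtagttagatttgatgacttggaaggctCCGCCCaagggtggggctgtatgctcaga
Igtp: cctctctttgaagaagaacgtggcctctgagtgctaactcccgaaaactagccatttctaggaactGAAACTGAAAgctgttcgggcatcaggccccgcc
Lgals9: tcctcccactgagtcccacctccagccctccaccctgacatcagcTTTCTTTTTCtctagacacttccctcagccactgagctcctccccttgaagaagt
Mrpl58: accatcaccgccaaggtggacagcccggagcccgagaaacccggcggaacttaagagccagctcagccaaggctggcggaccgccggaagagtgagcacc
Mrpl22: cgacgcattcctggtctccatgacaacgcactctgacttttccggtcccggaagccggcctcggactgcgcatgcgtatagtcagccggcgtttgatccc
The windows lie at chr11:72301529-72301628 (Xaf1, plus strand), chr11:101448312-101448411 (Ifi35, plus), chr11:58199456-58199555 (Igtp, plus), chr11:78984925-78985024 (Lgals9, minus), chr11:115403652-115403751 (Mrpl58, plus) and chr11:58171564-58171663 (Mrpl22, plus).

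The response element was found in 2 of 11 promoters of the interferon and chemokine list (Igtp and Lgals9) within 250 bases before the start. Over all 27025 promoters it was found in 3.04%, over measured genes on the other autosomes in 2.57% and over members in 2.39%. It was found in 4 of 306 members (1.31%) that rose for the mean of both days and in 3 of 19 (15.8%) that fell. The promoters of members held a GC box in 56.5%, a CCAAT box in 37.1% and a TATA box in 8.32%. For measured genes on the other autosomes these shares were 56.1%, 36.2% and 7.59%, and over all promoters 32.9%, 34.5% and 13.0%. Among the 306 promoters of members that rose for the mean of both days the shares were 58.2%, 37.9% and 6.21%. A match is a description of letters and not a site in use.

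Genes of chromosome 11 were compared between knockout and control cells first as a whole. On every array, the deviation of each gene from its mean over 8 arrays was taken, and the median over chromosome 11 was set against that of the other autosomes. Control arrays stood at -0.16 and -0.15 on day 7 and at -0.17 and -0.14 on day 9. Knockout arrays stood at 0.16 and 0.16 on day 7 and at 0.15 and 0.20 on day 9. All 4 knockout arrays lay high and all 4 control arrays low, with no overlap, while none of the 18 other autosomes went beyond -0.05 to 0.08 on any array.

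**Figure D1:**
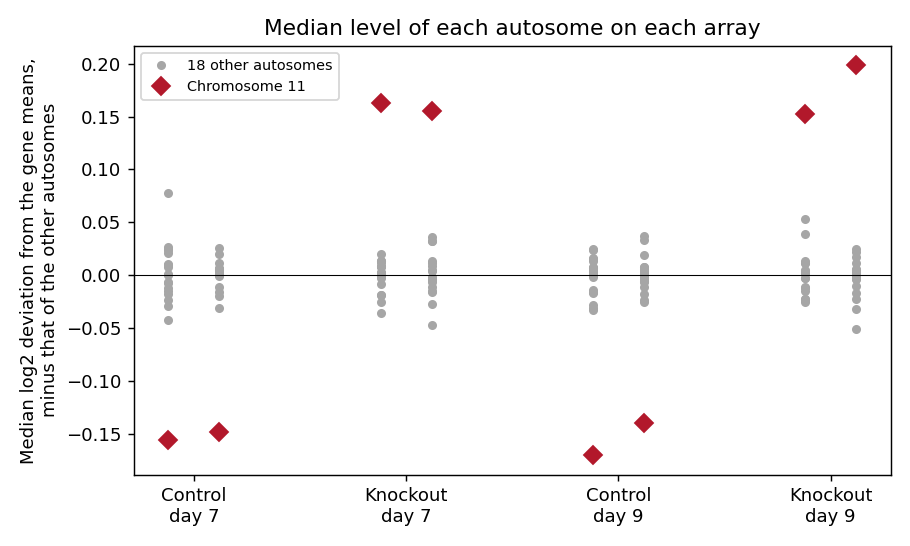
Median log2 deviation of the genes of each autosome on each of the 8 arrays, relative to the other autosomes (y axis), by group (x axis, 2 arrays a group). Red diamonds are chromosome 11, between 0.15 and 0.20 in knockout cells and between -0.17 and -0.14 in control cells, and grey points are the 18 other autosomes, between -0.05 and 0.08.

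The median log2 change of chromosome 11 genes, knockout against control, was 0.26 on day 7, against -0.05 for the other autosomes. On day 9 it was 0.36, against -0.01. The difference between both medians was 0.31 on day 7 (0.32 in replicate 1 and 0.30 in replicate 2) and 0.36 on day 9 (0.36 and 0.34), which is 1.24-fold and 1.29-fold. For the mean of both days it was 0.34, or 1.27-fold. The quartiles of the members' changes were -0.01 and 0.53 there, and -0.29 and 0.18 on the other autosomes. Of the members, 74.4% had a change above 0, against 46.3% elsewhere. Chromosome 11 had the highest median of 19 autosomes on both days, and over both days the other medians lay between -0.10 (chromosome 18) and 0.02 (chromosome 19).

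**Figure D2:**
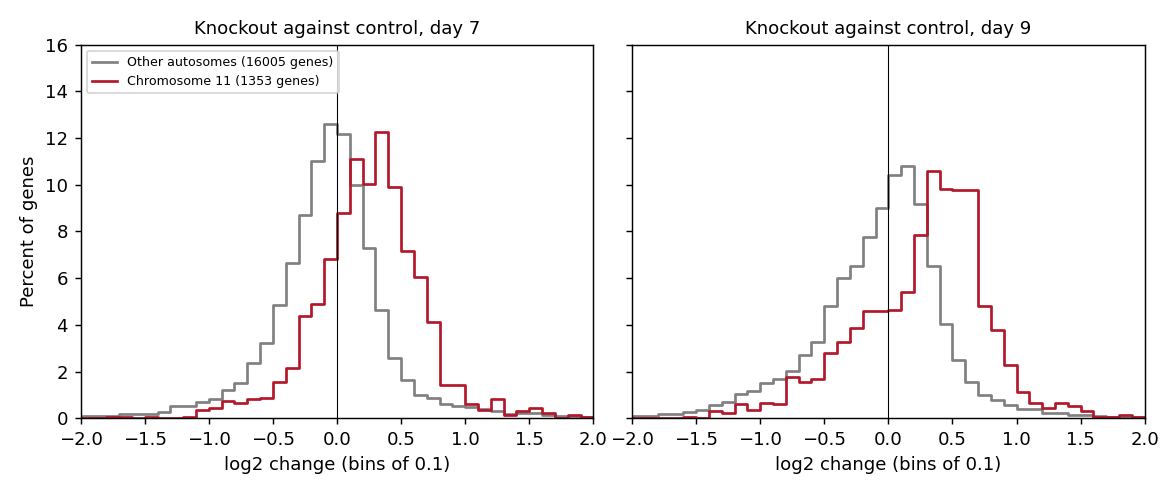
Share of genes (y axis, percent) by log2 change between knockout and control (x axis, bins of 0.1) on day 7 (left) and day 9 (right), for 1353 chromosome 11 genes (red) and 16005 genes on the other autosomes (grey). The red distribution is moved to the right as a whole, with medians of 0.26 and 0.36 against -0.05 and -0.01.

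Single genes were tested with limma over all 24614 genes, with Benjamini-Hochberg adjustment. On day 7, 2 members rose and 0 fell, while 0.0975% of all genes were called higher and 0.118% lower. At an unadjusted p under 0.05, 414 of 1353 members were higher and 47 lower, against 997 and 1868 of 16005 genes on the other autosomes. The 2 were Igfbp4, which binds insulin-like growth factors (1.09 ± 0.12 SE, adjusted p = 0.0386), and Ccdc69, a regulator of the spindle (1.22 ± 0.13, adjusted p = 0.0348). On day 9, 115 members (8.5%) rose and 15 (1.11%) fell, against 1.5% and 3.96% of all genes. All 115 also had a change above 0 on day 7, as did 75.9% of all members.

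For the mean of both days, which sets 4 arrays against 4, 378 members (27.9%) rose and 37 (2.73%) fell. Of all genes, 5.48% were called higher and 9.34% lower. On the other autosomes alone, 706 genes rose and 1507 fell. In 372 of the 378 and in all 37 the sign was the same in all 4 pairs of arrays that share a day and a replicate number. These members were called on the same arrays, which favours a shared sign, so this count is no further support. All 4 knockout arrays lay above all 4 control arrays in 370 members (27.3%), against 5.38% of all genes. They lay below them in 33 members (2.44%), against 8.61% of all genes. After quantile normalization 396 members rose and 22 fell for the mean of both days, and over all genes 1639 rose and 1760 fell in place of 1350 and 2300.

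The number of calls rested on all arrays, while the median did not. With 1 array left out the fit has fewer residual degrees of freedom. For the mean of both days, where 415 members were called in all, leaving out replicate 1 or 2 of control day 7 gave 178 or 190 calls, of which 163 or 185 were among the 415 with the same direction. For knockout day 7 it gave 122 or 135 (116 or 127 shared), for control day 9 113 or 278 (110 or 246 shared) and for knockout day 9 97 or 25 (95 or 24 shared). For day 9, in place of 130 calls there were 48, 48, 32, 32, 2, 23, 2 and 0 in the same order, with 43, 43, 31, 31, 2, 15, 2 and 0 shared. For day 7, in place of 2 calls there were 1, 0, 0, 1, 11, 11, 0 and 0. Both calls of day 7 were among the 11 without a control array of day 9, and neither was found again under the other 6 omissions. The difference between the medians stayed between 0.33 and 0.36 for the mean of both days under the same omissions.

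The shift was then followed along the chromosome, over RefSeq-named genes in their order. In 10 parts of 121 or 122 genes, the median change for the mean of both days ran from 0.28 (from Krtap4-1 to Arf2) to 0.39 (from Supt6 to Pctp). It was 0.34, 0.33, 0.35, 0.29, 0.38, 0.39, 0.29, 0.28, 0.38 and 0.37 from the first part to the last. On day 7 the parts ran from 0.20 to 0.33 and on day 9 from 0.28 to 0.47. The 180 such parts of the other autosomes lay between -0.46 and 0.22 for the mean of both days, and none reached the lowest part of chromosome 11 there. On day 9 their highest was 0.18, also below it. On day 7 the highest, on chromosome 14, was 0.23, above the lowest part of chromosome 11 at 0.20 (from Tmem100 to Gm11937). Entries named by position alone, split in 10 parts in the same way, did not rise throughout. Their medians for the mean of both days ran from -0.27 to 0.13. The 180 such parts of the other autosomes ran from -0.74 to 0.10.

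A running median of 51 genes for the mean of both days was above 0 in all 1168 windows. It was highest, at 0.51, between Tlcd3a and Poldip2. The lowest value, 0.02, lay between Grb7 and Gast, in a window with 23 keratin or keratin-associated genes. That window stood at 0.06 on day 7 and -0.09 on day 9. On day 9, 32 windows were below 0, centred from Krt25 to Jup, and on day 7 none of the 1168 was. The 15 measured Krt genes, which encode the filaments of epithelia, had a median of 0.02, with 1 higher and 2 lower calls, and the 8 Krtap genes one of -0.24 with 2 lower.

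**Figure D3:**
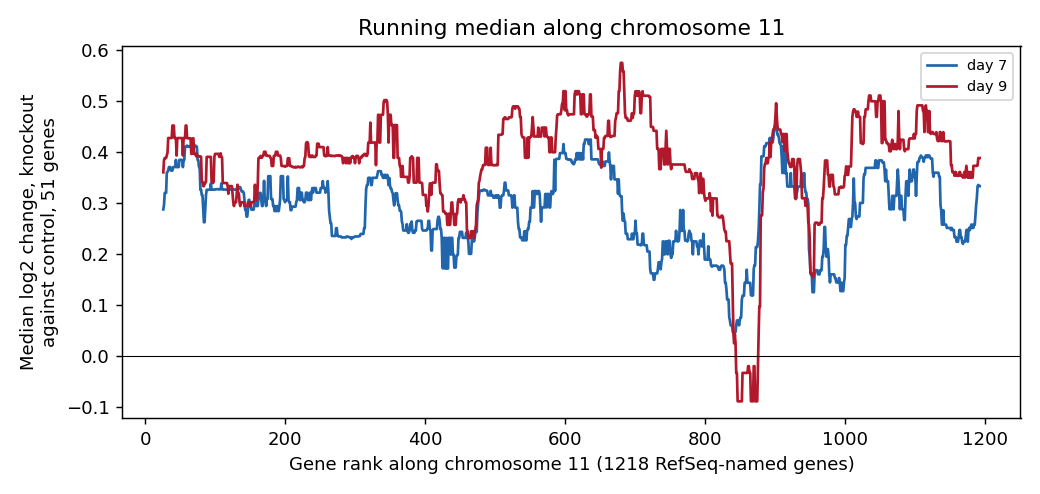
Median log2 change between knockout and control over 51 neighbouring genes (y axis), by the rank of the central gene along chromosome 11 (x axis), on day 7 (blue) and day 9 (red). The day 7 line stays above 0 throughout, and the day 9 line does so except for the dip at the keratin genes, where it reaches -0.09.

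The shift was seen in genes of different kinds and levels. For the mean of both days, the 1188 protein-coding members had a median of 0.34, against 0.01 for such genes on the other autosomes, with 366 higher and 26 lower calls. The 24 long noncoding RNAs had 0.21 against -0.09. The 135 entries named by position alone had -0.07 against -0.24, a difference of 0.17, with 8 higher and 10 lower calls. Over all members 27.9% were called higher and 2.73% lower, and over all genes 5.48% and 9.34%. Calls by kind or level were not counted on the other autosomes, so these counts are not set against such genes there. In 5 equal bins of the tested genes by level, from low to high, the difference between the medians was 0.16, 0.36, 0.33, 0.37 and 0.30. In the lowest bin the 178 members had a median of -0.04, against -0.20 on the other autosomes, with 12 higher and 7 lower calls. The members' median there was thus below 0, though above that of the other autosomes. The 1227 members above background on all 8 arrays had a median of 0.32, against -0.02 for such genes elsewhere. Only 43 members passed the background filter through knockout groups alone and 14 through control groups alone.

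Genes that share a symbol stem were set against relatives elsewhere, over 20 stems with at least 5 genes on chromosome 11 and 20 on other autosomes. In 18 of the 20, the chromosome 11 genes had the higher median, by 0.34 in the middle of the 20. The 11 Mrpl and Mrps genes, which encode proteins of the mitochondrial ribosome, all rose, between 0.49 and 0.69, with a median of 0.57. Their 66 relatives elsewhere had a median of 0.21, and 7 of them rose. The 16 Tmem genes had 0.58 against 0.00 for 170 relatives, and the 18 Zfp genes, which encode zinc finger proteins, 0.39 against 0.00 for 320. The 9 Rpl and Rps genes, of the cytosolic ribosome, had 0.13 against 0.00, with 0 calls among the 9. The stems in which chromosome 11 was not higher were Gm, a stem of predicted genes (-0.21 against -0.17), and Cd (-0.22 against -0.12).

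Members were then grouped by role in 10 lists. All changes that follow are log2 changes for the mean of both days unless a day is named. Over all 1353 members, 27.9% were called higher and 2.73% lower there, the base for the counts of each list. A list with shares near these shows nothing particular to its role. Genes of mitosis, replication and repair had a median of 0.68, above that of all members at 0.31, and 16 of 21 measured genes rose with 0 falling. The repair genes Brca1 (0.88 ± 0.13, adjusted p = 0.0146), Brip1 (0.85 ± 0.12, adjusted p = 0.0127) and Rad51d (0.82 ± 0.09, adjusted p = 0.00857) were among them. So was Top2a, the topoisomerase of dividing cells (0.60 ± 0.11, adjusted p = 0.0212). The list's brightest members changed less. Kpna2, an import receptor, stood at 0.20 ± 0.14 (adjusted p = 0.354) and Pttg1, the securin, at 0.32 ± 0.13 (adjusted p = 0.139). Birc5, the survivin gene of the chromosomal passenger complex, had control levels of 5.91 and 6.16 on day 7 and 5.79 and 5.65 on day 9, and knockout levels of 6.31 and 6.48, then 6.21 and 6.45. All its knockout arrays lay above its control arrays, and it rose by 0.48 ± 0.12 (adjusted p = 0.0402). Of division markers on other chromosomes, Mki67 stood at 0.14 (adjusted p = 0.381) and Ccnb1 at 0.20 (adjusted p = 0.197).

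Genes of mitochondrial proteins had a median of 0.51, and 12 of 19 rose with 0 falling. Besides 8 of the ribosomal genes above, which include Mrpl10 (0.69 ± 0.10, adjusted p = 0.0153), these included Acadvl, for fatty acid oxidation (0.72 ± 0.11, adjusted p = 0.0165), Timm22, for protein import, and Cox11, for assembly of cytochrome oxidase. The brightest members were the ATP synthase genes Atp5g1 (0.12 ± 0.13, adjusted p = 0.559) and Atp5h (0.15 ± 0.15, adjusted p = 0.506) and Uqcrq, of respiratory complex III (0.26 ± 0.13, adjusted p = 0.224). None of these 3 passed the test.

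Chromatin and transcription genes had a median of 0.38, with 7 of 23 higher and 0 lower. The heterochromatin protein gene Cbx1 rose by 0.72 ± 0.10 (adjusted p = 0.0139), the acetyltransferase gene Kat2a by 0.69 ± 0.12 (adjusted p = 0.0198), and Suz12, of Polycomb repressive complex 2, by 0.42 ± 0.10 (adjusted p = 0.0360). The bright members H3f3b, a histone H3.3 gene (0.30 ± 0.12, adjusted p = 0.136), Supt6, an elongation factor (0.38 ± 0.12, adjusted p = 0.0834), and Smarce1, of the BAF remodeller (-0.09 ± 0.17, adjusted p = 0.746), did not pass. Proteasome and ubiquitin genes had a median of 0.35, with 3 of 16 higher. These were Cops3, of the COP9 signalosome (0.68 ± 0.10, adjusted p = 0.0140), and the proteasome lid genes Psmd11 and Psmd12. Psme3, a proteasome activator, fell by 0.53 ± 0.13 SE (adjusted p = 0.0466). Ubb, a ubiquitin gene, stood at 0.00 ± 0.20, Psmb6 at 0.16 ± 0.17 and Sumo2 at 0.08 ± 0.11.

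Splicing genes had a median of 0.26, with 2 of 11 higher, Sf3a1 (0.54 ± 0.12, adjusted p = 0.0311) and Cwc25 (0.40 ± 0.10, adjusted p = 0.0490). Prpf8, the core of the spliceosome, stood at 0.25 ± 0.10 (adjusted p = 0.148), Hnrnpab at 0.36 ± 0.15 (adjusted p = 0.148) and Hnrnph1 at 0.09 ± 0.14 (adjusted p = 0.690). Cytosolic translation genes had a median of 0.22, with 1 of 14 higher, Eif4a3, a helicase of the exon junction complex (0.72 ± 0.14, adjusted p = 0.0235). The bright ribosomal genes Rps27a (0.01 ± 0.28), Rpl38 (0.05 ± 0.23) and Rack1 (-0.01 ± 0.22) stood near 0. Rps27a had levels between 8.04 and 8.92 on all 8 arrays, and its replicates differed by more than its genotypes did.

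**Figure D4:**
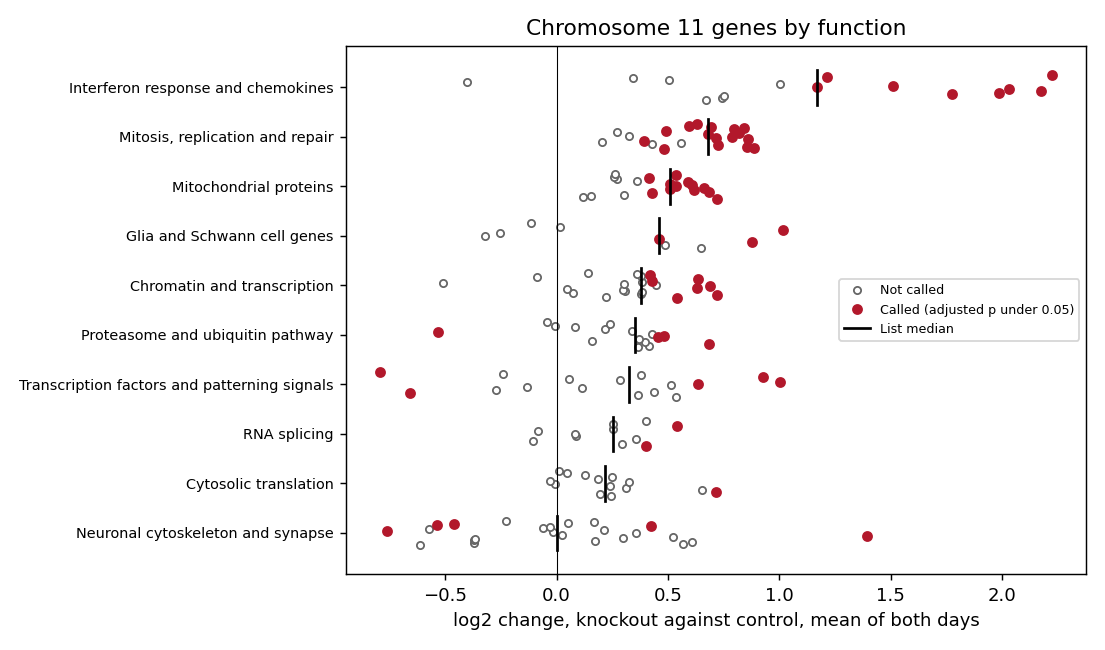
Log2 change between knockout and control for the mean of both days (x axis) of each measured chromosome 11 gene in 10 lists (y axis). Filled red points passed limma at an adjusted p under 0.05, open points did not, and black bars are list medians, from 0.00 for neuronal genes to 1.17 for interferon genes.

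Neuronal cytoskeleton and synapse genes had a median of 0.00 with 2 of 24 higher and 3 lower, below the median of all members. Mapt, which encodes the axonal microtubule protein tau, had control levels of 5.99 and 5.94 on day 7 and 6.35 and 5.89 on day 9. Its knockout levels were 5.47 and 5.32, then 5.09 and 5.24. Every knockout array lay below every control array, and Mapt fell by 0.76 ± 0.13 SE (adjusted p = 0.0186). Rac3, a small GTPase of neurons, fell by 0.54 ± 0.12 SE (adjusted p = 0.0334) and Rbfox3, the neuronal nuclear antigen, by 0.46 ± 0.12 SE (adjusted p = 0.0466). Nefh, the heavy neurofilament gene, stood at -0.57 ± 0.19 (adjusted p = 0.0896). Cltc, the clathrin heavy chain, stood at 0.17 ± 0.10 (adjusted p = 0.275) and Nlgn2, an adhesion protein of inhibitory synapses, at -0.06 ± 0.10 (adjusted p = 0.691). Of the 8 motor neuron markers, on other chromosomes, 4 fell (Chat, Slc18a3, Slc5a7 and Prph, from -0.96 to -1.85), Lhx3 rose (0.91, adjusted p = 0.00994), and Isl1, Isl2 and Lhx4 did not pass (-0.65, 0.04 and 0.24).

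Glra1, a glycine receptor subunit, and Pafah1b1, the Lis1 gene of nuclear migration (0.42 ± 0.10, adjusted p = 0.0372), were the higher calls of that list. Glra1 had control levels of -3.08 and -2.58 on day 7 and -5.15 and -4.11 on day 9, and knockout levels of -2.62 and -1.87, then -2.55 and -2.29. The genotypes overlapped on day 7 and not on day 9. Glra1 rose by 1.39 ± 0.29 (adjusted p = 0.0281). Grin2c, an NMDA receptor subunit, had control levels of -2.65 and -2.75 on day 7 and -4.62 and -4.42 on day 9, and knockout levels of -2.07 and -2.29, then -2.29 and -1.83. The genotypes did not overlap on either day. Grin2c rose by 2.46 ± 0.19 on day 9 (adjusted p = 0.00753) and stood at 0.53 ± 0.19 on day 7 (adjusted p = 0.219). The difference between the days was 1.93 (adjusted p = 0.329 by limma) and did not pass.

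Transcription factors and patterning signals had a median of 0.33, with 3 of 16 higher and 2 lower. Sox9, a factor of neural stem cells and glia, rose by 1.00 ± 0.23 (adjusted p = 0.0348), Tcf7, a factor of Wnt signalling, by 0.93 ± 0.14 (adjusted p = 0.0158), and Rara, a retinoic acid receptor, by 0.64 ± 0.16 (adjusted p = 0.0437). The ligand gene Wnt9b fell by 0.79 ± 0.11 SE (adjusted p = 0.0133) and the factor gene Ebf1 by 0.66 ± 0.12 SE (adjusted p = 0.0223). Wnt9b had control levels of -0.50 and -0.24 on day 7 and -1.33 and -1.43 on day 9, and knockout levels of -0.91 and -0.66, then -2.55 and -2.57. It was lower in knockout cells on each day and in each replicate. Meis1, a homeobox factor (0.11 ± 0.09, adjusted p = 0.421), and Stat3, a cytokine-activated factor (0.28 ± 0.15, adjusted p = 0.233), did not pass. Glial genes had a median of 0.46 with 3 of 9 higher: the myelin gene Pmp22 (1.02 ± 0.20, adjusted p = 0.0252) and the receptor genes Egfr (0.88 ± 0.23, adjusted p = 0.0499) and Erbb2 (0.46 ± 0.12, adjusted p = 0.0459). Sparc, a matrix glycoprotein (0.01 ± 0.20), Timp2, a protease inhibitor (-0.12 ± 0.13), and Ngfr, a neurotrophin receptor (-0.25 ± 0.14), did not pass.

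Interferon response and chemokine genes had a median of 1.17, and 8 of 15 rose with 0 falling. The list's measured chemokines did not pass limma: Ccl2 (0.67 ± 0.19, adjusted p = 0.0572), Ccl5 (0.74 ± 0.28, adjusted p = 0.121) and Ccl7 (0.75 ± 0.32, adjusted p = 0.150). On day 9 these chemokines stood at 0.12, -0.02 and 0.11. On single days 0 of the 15 passed by limma, with 12 higher on day 7 and 4 higher on day 9 at an unadjusted p under 0.05. At that threshold, 414 of all 1353 members were higher on day 7 and 537 on day 9. Xaf1, an inducer of apoptosis that interferon raises, had control levels of -0.51 and -1.49 on day 7 and 2.36 and 3.83 on day 9. Its knockout levels were 2.35 and 1.93, then 4.63 and 4.18. Knockout lay above control within each day, while both control arrays of day 9 lay above both knockout arrays of day 7. Xaf1 rose by 2.22 ± 0.37 (adjusted p = 0.0183). Igtp, an interferon-induced GTPase whose promoter holds the response element, rose by 2.03 ± 0.35 (adjusted p = 0.0196), Ifi35 by 1.99 ± 0.36 (adjusted p = 0.0211), Trim25, a ligase of RNA sensing, by 1.21 ± 0.19 (adjusted p = 0.0166) and Lgals3bp by 1.51 ± 0.38 (adjusted p = 0.0451), a call lost under 12 of 17 alternatives. Dhx58, an RNA helicase of virus sensing, rose by 1.77 ± 0.44 (adjusted p = 0.0432). Igtp stood at 3.09 on day 7 and 0.97 on day 9 and Trim25 at 1.84 and 0.59, neither day passing. In replicate 2 of day 9, Igtp had a level of 4.19 in control and 4.17 in knockout cells, and Lgals3bp 5.46 and 5.27. Knockout was thus not above control in that replicate for either gene.

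The list's median deviation from the gene means was -1.22 and -1.51 on the control arrays of day 7 and -0.16 and 0.53 on those of day 9. On the knockout arrays it was 0.61 and -0.16, then 0.94 and 0.62. The 2 control arrays of day 9 thus differed in these genes by more than the 2 knockout arrays of that day. The promoter of Lgals9, a galectin gene, also holds the element, and Lgals9 stood at 1.00 ± 0.30 (adjusted p = 0.0693).

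Other large rises were in genes outside the lists. Ccl12, a chemokine, rose by 1.71 ± 0.45 (adjusted p = 0.0499), with 1 of 2 control arrays of day 9 below background. Zfp750, an epidermal factor, rose by 1.5 ± 0.29 (adjusted p = 0.0241), with 1 of 2 control arrays of day 7 below background. Mfap4, a matrix protein gene, had control levels of 0.47 and 0.50 on day 7 and 1.27 and 1.29 on day 9, and knockout levels of 2.15 and 1.72, then 2.86 and 2.62. Its knockout arrays all lay above its control arrays, and it rose by 1.46 ± 0.13 (adjusted p = 0.00509), beside the fibroblast and mesoderm markers Lum (1.36, adjusted p = 0.0160) and Thy1. Ccdc69 was also higher in knockout cells for the mean of both days (adjusted p = 0.00207). Its control arrays were below background on day 9, where it was at least 1.53-fold higher in knockout cells, and 1 of 2 was below background on day 7. Clhc1 passed in the same direction (adjusted p = 0.0259), but both its control arrays of day 9 and 1 array each of control day 7 and knockout day 9 were below background, so no size is given.

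The largest fall was that of Slc13a2, a dicarboxylate transporter of kidney and gut. It had control levels of -4.01 and -4.50 on day 7 and -4.86 and -5.66 on day 9, where 1 of 2 was below background. All 4 knockout arrays were below background, and the gene was at least 2.02-fold lower there (adjusted p = 0.00613). Cldn7, a claudin of epithelial junctions, had control levels of -0.85 and -0.70 on day 7 and -0.93 and -0.27 on day 9, and stood at -1.71 on both knockout arrays of day 7 and -1.63 on both of day 9. It fell by 0.98 ± 0.15 SE (adjusted p = 0.0163), and the groups did not overlap. Krt19, an epithelial keratin, fell by 0.79 ± 0.12 SE (adjusted p = 0.0163), Spem1, a gene of sperm maturation, by 0.95 ± 0.12 SE (adjusted p = 0.0110) and Krtap31-1 by 0.76 ± 0.15 SE (adjusted p = 0.0255). Vstm2a, a secreted immunoglobulin-domain protein gene, fell by 0.74 ± 0.18 SE (adjusted p = 0.0413), Krtap4-1 by 0.74 ± 0.18 SE (adjusted p = 0.0416) and the predicted gene Gm12253 by 0.74 ± 0.15 SE (adjusted p = 0.0294). Krtap4-1 was below background on 1 array each of knockout day 7, control day 9 and knockout day 9, and Gm12253 on 1 array of knockout day 7. The call of Vstm2a was lost under 11 of 17 alternatives, that of Krtap4-1 under 12 of 16 and that of Gm12253 under 11 of 16.

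**Figure D5:**
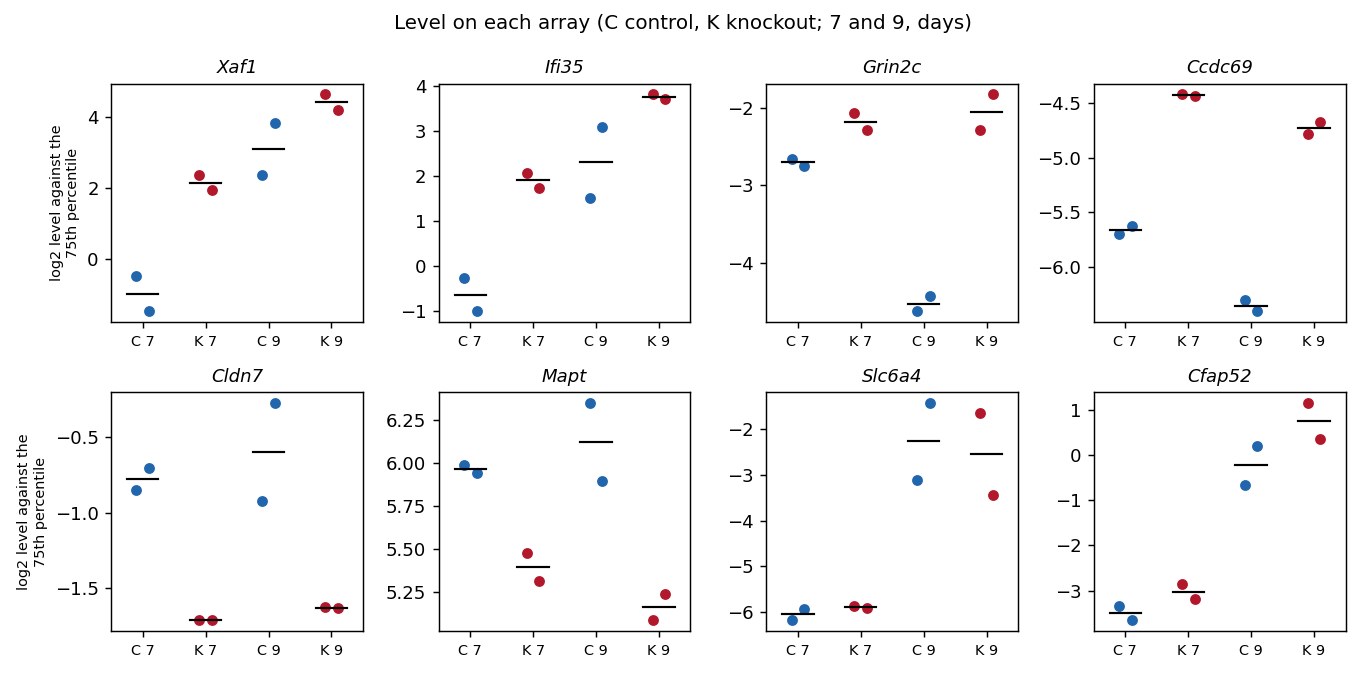
Log2 level relative to the 75th percentile of the array (y axis) on each of the 2 arrays (points) of each group, with the group mean (bar), for 8 named genes; control is blue and knockout red. Cldn7 and Mapt are lower on all knockout arrays, and Grin2c and Ccdc69 are higher on all of them. Slc6a4 and Cfap52 are high on day 9 in both genotypes.

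Among entries named by position alone, which carry no gene name here, those with the largest called changes were taken. The entry at chr11:119254413-119296960 (mm9, forward strand) rose by 1.88 ± 0.33 (adjusted p = 0.0207). Its control levels were -2.31 and -2.33 on day 7 and -0.12 and 1.48 on day 9, and its knockout levels 0.40 and 0.84, then 1.49 and 1.52. The entry at chr11:51003332-51033057 (reverse strand) rose by 1.60 ± 0.40 (adjusted p = 0.0444), with 1 control array below background on each day. The entry at chr11:87841800-87858725 (forward strand) fell by 0.81 ± 0.16 SE (adjusted p = 0.0262). The entry at chr11:60728207-60745369 (forward strand) fell by 1.01 ± 0.11 SE (adjusted p = 0.00769) at its brightest of 3 probes, and the median of its probes stood at 0.60 (adjusted p = 0.322). Its probes thus disagree in direction.

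Day 9 was then compared with day 7 within each genotype. Here chromosome 11 lay close to the rest: its median minus that of the other autosomes was -0.01 in control and 0.01 in knockout cells. In control cells 62 members rose and 47 fell, against 4.12% and 3.26% of all genes, which is 4.58% and 3.47% of the members. In knockout cells 58 (4.29%) rose and 40 (2.96%) fell, against 4.15% and 4.16%. Without 1 array there were, in place of the 109 calls of control cells, 41 and 0 (control day 7 replicates 1 and 2), 59 and 59 (knockout day 7), 65 and 13 (control day 9) and 47 and 47 (knockout day 9). In place of the 98 calls of knockout cells there were 47 and 26 without knockout day 7 replicates 1 and 2 and 24 and 26 without those of knockout day 9.

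Some of the largest rises were shared by both genotypes. Cfap52, a ciliary protein gene, had levels of -3.35 and -3.65 on day 7 and -0.67 and 0.20 on day 9 in control cells, and of -2.86 and -3.19 and then 1.14 and 0.34 in knockout cells. The days did not overlap in either genotype, and it rose by 3.26 ± 0.37 in control (adjusted p = 0.00997) and 3.76 ± 0.37 in knockout cells (adjusted p = 0.00606). Foxj1, the master factor of motile cilia, rose by 2.37 ± 0.33 (adjusted p = 0.0170) and 2.93 ± 0.33 (adjusted p = 0.00738). Slc6a4, the serotonin transporter, was below background on both control arrays of day 7 and at least 9.17-fold higher on day 9 (adjusted p = 0.0308). In knockout cells it rose by 3.33 ± 0.69 (adjusted p = 0.0367), with 1 of 2 arrays of day 7 below background. Metrnl, a secreted factor, rose by 2.43 ± 0.23 (adjusted p = 0.00729) and 2.73 ± 0.23 (adjusted p = 0.00482). Smim5 was at least 3.38-fold higher on day 9 in knockout cells (adjusted p = 0.0438), both arrays of day 7 being below background.

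Interferon genes rose in control cells from day 7 to day 9, Xaf1 by 4.09 ± 0.53 (adjusted p = 0.0138), Lgals3bp by 3.36 ± 0.53 (adjusted p = 0.0215) and Igtp by 3.15 ± 0.50 (adjusted p = 0.0214). In all, 6 of the 15 listed genes rose in control and 1 in knockout cells. The difference between the genotypes was not called for any of them (Xaf1 -1.83, adjusted p = 0.826). Neurod2, a factor of neuronal differentiation, fell by 2.91 ± 0.49 SE in control (adjusted p = 0.0256) and by 2.15 ± 0.49 SE in knockout cells (adjusted p = 0.0489), with 1 of 2 control arrays of day 9 below background. C1ql1, a synaptic organiser, fell by 3.01 ± 0.50 SE in control cells (adjusted p = 0.0243). In the same cells Grin2c fell by 1.82 ± 0.19 SE (adjusted p = 0.00883), and Glra1 fell by 1.80 ± 0.41 SE (adjusted p = 0.0497). Lpo, a lactoperoxidase, fell by 1.63 ± 0.19 SE there (adjusted p = 0.0102). In knockout cells Grin2c stood at 0.12 ± 0.19 (adjusted p = 0.732) and Glra1 at -0.17 ± 0.41 (adjusted p = 0.814). Lpo fell in knockout cells as well, by 1.39 ± 0.19 SE (adjusted p = 0.0103 by limma). C1ql1 stood at -1.59 ± 0.50 in knockout cells (adjusted p = 0.108) and did not pass.

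In knockout cells Galr2, a galanin receptor, fell by 2.48 ± 0.51 SE (adjusted p = 0.0365). Both arrays of day 7 were above background, at -2.34 and -4.01, and 1 of 2 was below it on day 9. Etv4, an ETS factor of motor pools, fell by 2.34 ± 0.43 SE (adjusted p = 0.0259), Ddc, of dopamine and serotonin synthesis, by 2.18 ± 0.22 SE (adjusted p = 0.00611) and Meox1, a mesodermal homeobox factor, by 2.06 ± 0.17 SE (adjusted p = 0.00482). In control cells Ddc fell by 1.54 ± 0.22 SE (adjusted p = 0.0170) and Meox1 by 1.53 ± 0.17 SE (adjusted p = 0.00896).

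The knockout effects of the 2 days were last set against each other. Of the members, 0 passed limma's interaction term in either direction. At an unadjusted p under 0.05, 30 of 1353 were higher and 30 lower, against 438 and 557 of 16005 genes on the other autosomes. Of all genes 0 were called higher and 1 (0.00406%) lower. The median difference was 0.04 for chromosome 11 and 0.01 for the other autosomes.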

How the data were processed

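RNA was measured on 8 one-colour arrays. The submitters' processing notes name Agilent Feature Extraction, version 10.5.1. Its processed signal, as deposited, is a background-subtracted and detrended intensity. The authors also deposited a log2 table with equal column medians, whose normalization is not given in the sources used here; it served as an alternative.

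Outlier and control spots were dropped, spots of a probe averaged on log2, and each array's 75th percentile subtracted. Probes lacking a value on an array (17 otherwise kept) were dropped. The brightest kept probe stood for a gene. All 8 arrays, from 1 slide, entered 1 limma 3.58.1 fit (R 4.3.3) of 4 group means, two-sided, with 4 residual degrees of freedom, Benjamini-Hochberg adjusted; called means an adjusted p under 0.05. The code was tested on simulated data. Against a group wholly below background, "at least N-fold" sets the bright group's mean against the higher of the lowest signal well above background and the gene's own signal, per array.

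Genes were placed through RefSeq accessions (GRCm38.p6 table, names and order only); 13187 of 55681 probes were not placed. Named genes were the 10 called members with the largest rise and 10 with the largest fall for the mean of both days with one sign throughout, 5 each way per day comparison, the 3 brightest of each list, and 2 position entries each way; other list members are examples chosen after their values were seen. Members and lists were chosen with earlier results of these data known. Alternatives changed normalization, background, filter, probe choice, members, the replicate block and each array in turn. Normexp used the median spot signal, as the files hold no mean signal.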

Additional observations from a re-analysis of the deposited data

How the results depend on the processing

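The difference between the median of chromosome 11 and that of the other autosomes stayed above 0 for both days and their mean under every alternative run. On day 7 (0.31) it moved to 0.26 with normexp background correction and 0.17 over position-named entries, on day 9 (0.36) to 0.32 after quantile normalization, 0.34 with normexp, 0.32 in the deposited table, 0.33 over RefSeq genes and 0.13 over position-named entries, and for the mean (0.34) to 0.17 over the latter. Leaving out 1 array gave 0.30 to 0.33, 0.33 to 0.38 and 0.33 to 0.36. For day 9 against day 7 in control cells (-0.01) it was 0.000613 in the deposited table, -0.0263 without the filter and 0.0034 over position-named entries, in knockout cells (0.01) 0.0421 over the latter, and for the difference between the days (0.03) -0.0235. Omissions gave -0.0348 to 0.0176, -0.00207 to 0.0418 and 0.00909 to 0.0618.

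Counts of calls moved more. With normexp 0 members were called on day 7, 23 on day 9 (23 higher, 0 lower), 263 for the mean (251 and 12), 48 between the days in control cells (35 and 13, against 62 and 47) and 48 in knockout cells. Without the filter there were 0, 0, 10, 4 and 21. With probes above background on all 8 arrays 15 were called on day 7. Position-named entries alone gave 0, 6, 18, 13 and 13. An intensity trend in eBayes, added after seeing the data, gave 36 on day 7, 257 on day 9 and 174 between the days in control cells. Omissions gave 0 to 11, 0 to 48, 25 to 278, 0 to 65 and 24 to 93, and 0 for the difference between the days. The causes were not tested beyond the fewer arrays or entries that some alternatives hold.

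With the replicate number as a block, 5 were called on day 7 and 214 on day 9. Over all genes the block gave 1814 higher and 2979 lower calls for the mean of both days, in place of 1350 and 2300. Deviations of same-numbered arrays correlated between -0.25 and 0.46 in 6 group pairs, with a median of 0.14 and 3 above 0.1. The main fit did not take the numbers as pairs, and an effect of the replicate number was not tested. The fall at chr11:60728207-60745369 turned to 0.60 with the median of its probes. Of the other named values, 258 of their recomputed values no longer passed and 5 newly passed, with the sign kept. Calls lost most often, under 9 to 12 of 16 or 17 alternatives, were Krtap4-1, Lgals3bp, Gm12253, Vstm2a, Dhx58, Birc5, Krtap31-1 and the entries at chr11:87841800-87858725 and chr11:51003332-51033057 for the mean of both days, Glra1 between the days in control cells, and Galr2 and Neurod2 between the days in knockout cells. The calls of Grin2c and Mfap4 for the mean, and of Cfap52, Ddc, Foxj1, Meox1 and Metrnl between the days in knockout cells, held under all 17. Dim signal limits the dimmest genes.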
